A study of Mus musculus with 12 samples.

Results

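In colon tumors of 6 mice the change from an early to a late biopsy of the same tumor was compared between 3 tumors that ended as intramucosal carcinoma and 3 that ended as adenoma. All 12 arrays of the series enter, as 6 pairs of 1 early and 1 late biopsy per mouse. For each gene the early value of a mouse was subtracted from its late value on the log2 scale, and the 3 changes of the carcinoma mice were set against the 3 changes of the adenoma mice. A positive difference means that the late minus early change was higher in carcinomas than in adenomas.

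Every mouse was an F1 hybrid of SWR and C57BL/6 with the genotype Apc Min/+, in which 1 copy of the Wnt pathway suppressor Apc is mutant. Each had received 2 courses of 4% dextran sodium sulfate, which damages the epithelium of the colon and inflames it, of 4 days each with 17 days of plain water between them, from about weaning. Tumors were left 30 days to form and were then seen by colonoscopy every 14 days and sampled every 28 days. There were 3 pairs labelled adenoma, from mice 1755 (female, biopsied at 94 and 234 days of age), 1803 (male, 87 and 369 days) and 1805 (male, 86 and 395 days). The 3 pairs labelled carcinoma came from mice 2201 (male, 95 and 267 days), 3407 (female, 87 and 215 days) and 3413 (male, 117 and 200 days). Early biopsies have no pathology reading of their own, so each took that of the late biopsy of its mouse, and no untreated or Apc wild-type colon is among the arrays. Values below are listed in this order of mice, adenoma first.

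A colon adenoma is a benign growth of the epithelium, and an intramucosal carcinoma has breached the basement membrane of the glands without leaving the mucosa. Loss of Apc function leaves beta-catenin free to drive Wnt target genes, which keep crypt cells in a stem-like, dividing state. Around this epithelium lie vessels, fibroblasts and white blood cells, whose transcripts are part of any whole biopsy. The epithelial markers Epcam (12.68 to 13.03 log2 over the 12 arrays), Cdh1 (12.81 to 13.37), Krt8 (14.07 to 14.47) and the intestinal lectin Lgals4 (13.06 to 13.97) were among the brightest genes in every biopsy. Vil1, of the brush border (11.44 to 12.62), and the intestinal transcription factor Cdx1 (8.83 to 10.30) were lower and varied more.

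The arrays differ in ways that go partly with pathology. The submitters' sample numbers run from 155 to 255 for the early arrays of mice 1755, 1803, 1805 and 2201 and from 319 to 379 for the other 8, and the mean of 50 probe sets that name no gene was 7.08 to 7.19 log2 in the first range and 6.80 to 6.94 in the second. All 3 adenoma pairs and the pair of mouse 2201 therefore cross the ranges, while both biopsies of mouse 3407, and both of mouse 3413, carry numbers of the second. The biopsies of a pair were 140, 282 and 309 days apart in adenomas and 172, 128 and 83 days apart in carcinomas. With 3 mice per pathology an exact permutation test cannot give a p below 0.1, and the number of arrays limits the precision of every value. Since the labels do not say that the mice came from separate litters, the spread given is that between these 6 animals.

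No gene passed the threshold for a different change in the 2 pathologies. Of 19938 genes tested, 0 (0.0%) had an adjusted p under 0.05 by limma with Benjamini-Hochberg adjustment, and the smallest adjusted p was 0.456. The count was also 0 under each of 17 other ways of fitting. Before adjustment 1404 genes (7.04%) had a p under 0.05, of which 733 (3.68%) had the higher change in carcinomas and 671 (3.37%) the lower. Without mouse 3413 this count was 808. The median difference over all genes was -0.01 log2, and 335 genes differed by more than 1 log2, 165 of them with the higher change in carcinomas. The 3 changes of one pathology lay wholly above the 3 of the other in 1274 genes for carcinoma (6.39%) and in 1329 genes for adenoma (6.67%). Differences are therefore given as values of these 6 tumors. Over all genes 47.1% had the higher change in carcinomas, and this share and those above apply to the list counts below.

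**Figure D1:**
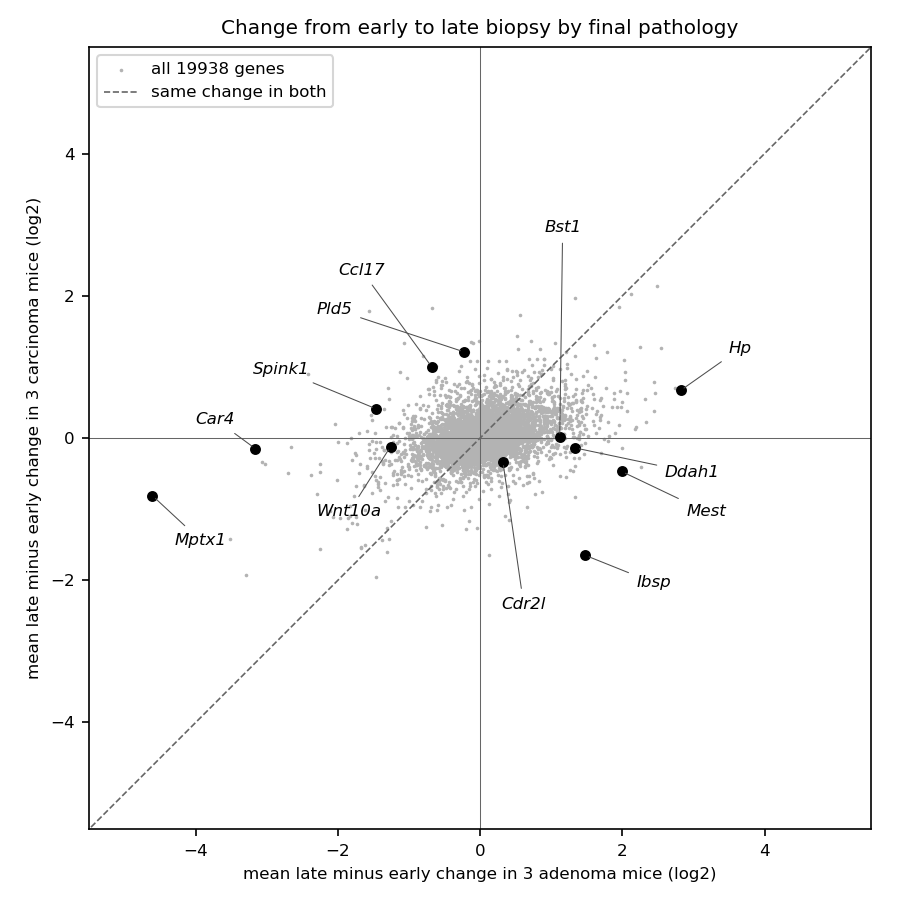
Each grey point is 1 of 19938 genes, with its mean late minus early change (log2) in the 3 adenoma mice on the horizontal axis and in the 3 carcinoma mice on the vertical axis; black points are named genes and the dashed line marks equal change. Mptx1 (-4.61 in adenomas) and Car4 (-3.16) lie far to the left, Hp (2.82) far to the right, and Ibsp low on the right, at -1.65 in carcinomas.

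Among the genes with the smallest p, some had changes of opposite sign in the pathologies and others changes of the same sign that were larger in adenomas. The one with the smallest p of all that the naming rule admits was Pld5, a member of the phospholipase D family. Pld5 was at 6.51, 7.13 and 6.49 log2 in the early adenoma biopsies and at 6.47, 6.62 and 6.38 in the late ones. In carcinomas Pld5 was at 6.46, 6.44 and 6.49 early and at 7.84, 7.58 and 7.59 late. The 3 late carcinoma arrays stood above all other 9, and the early arrays of both pathologies overlapped at a dim level, at percentile 27.3 of genes. The change was -0.22 ± 0.26 in adenomas and 1.21 ± 0.16 in carcinomas (SD, n = 3 each), a difference of 1.43 (SE 0.161, limma adjusted p = 0.456).

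Spink1, a secreted trypsin inhibitor, had one of the larger differences among them. Its early adenoma levels were 10.55, 10.60 and 12.01 log2 and its late ones 9.30, 8.85 and 10.62. In carcinomas it was at 6.29, 8.72 and 7.70 early and at 7.13, 8.76 and 8.04 late. The late level was lower than the early one in all 3 adenomas (changes -1.25, -1.75 and -1.39) and higher in all 3 carcinomas (0.85, 0.04 and 0.34), although in mouse 3407 barely so. The difference was 1.87 (SE 0.233, adjusted p = 0.456), and the adenomas stood above the carcinomas at both times. Of the other genes on this side, the zinc finger gene Zfp758 had changes of -0.96, -0.82 and -1.16 in adenomas and of -0.05, -0.08 and 0.20 in carcinomas. Fer1l6, of the ferlin family of membrane proteins, had -1.36, -1.19 and -1.45 against -0.06, -0.45 and -0.44. For both the 2 sets of changes did not overlap, with differences of 1.00 and 1.02 (limma adjusted p = 0.561 for each).

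On the other side the smallest p belonged to Bst1 (CD157), an ectoenzyme on stromal and myeloid cells. Bst1 was at 7.24, 6.66 and 8.13 log2 in the early adenoma biopsies and at 8.43, 7.72 and 9.26 in the late ones. In carcinomas it was at 7.91, 7.97 and 7.67 early and at 7.69, 8.03 and 7.86 late. Its changes in adenomas were close to each other (1.12 ± 0.06), while those in carcinomas lay around 0 (0.01 ± 0.21; SD, n = 3 each). The difference was -1.11 (SE 0.132, limma adjusted p = 0.456). Ddah1, which degrades the methylarginines that inhibit nitric oxide synthases, was at 10.89, 9.84 and 10.88 early and at 12.23, 11.10 and 12.30 late in adenomas. Its carcinoma levels were 10.84, 9.88 and 10.92 early and 10.71, 10.16 and 10.37 late. The early levels of Ddah1 overlapped between the pathologies, and the late adenoma level exceeded the early one by 1.34, 1.26 and 1.42. The difference was -1.47 (SE 0.207, adjusted p = 0.561). Sema6d, a transmembrane semaphorin, had changes of 1.05, 1.24 and 1.58 against 0.42, 0.06 and -0.12. Efna2, an ephrin ligand, had smaller ones, 0.19, 0.16 and 0.10 against -0.38, -0.41 and -0.53. In each the carcinoma changes lay below all adenoma changes.

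**Figure D2:**
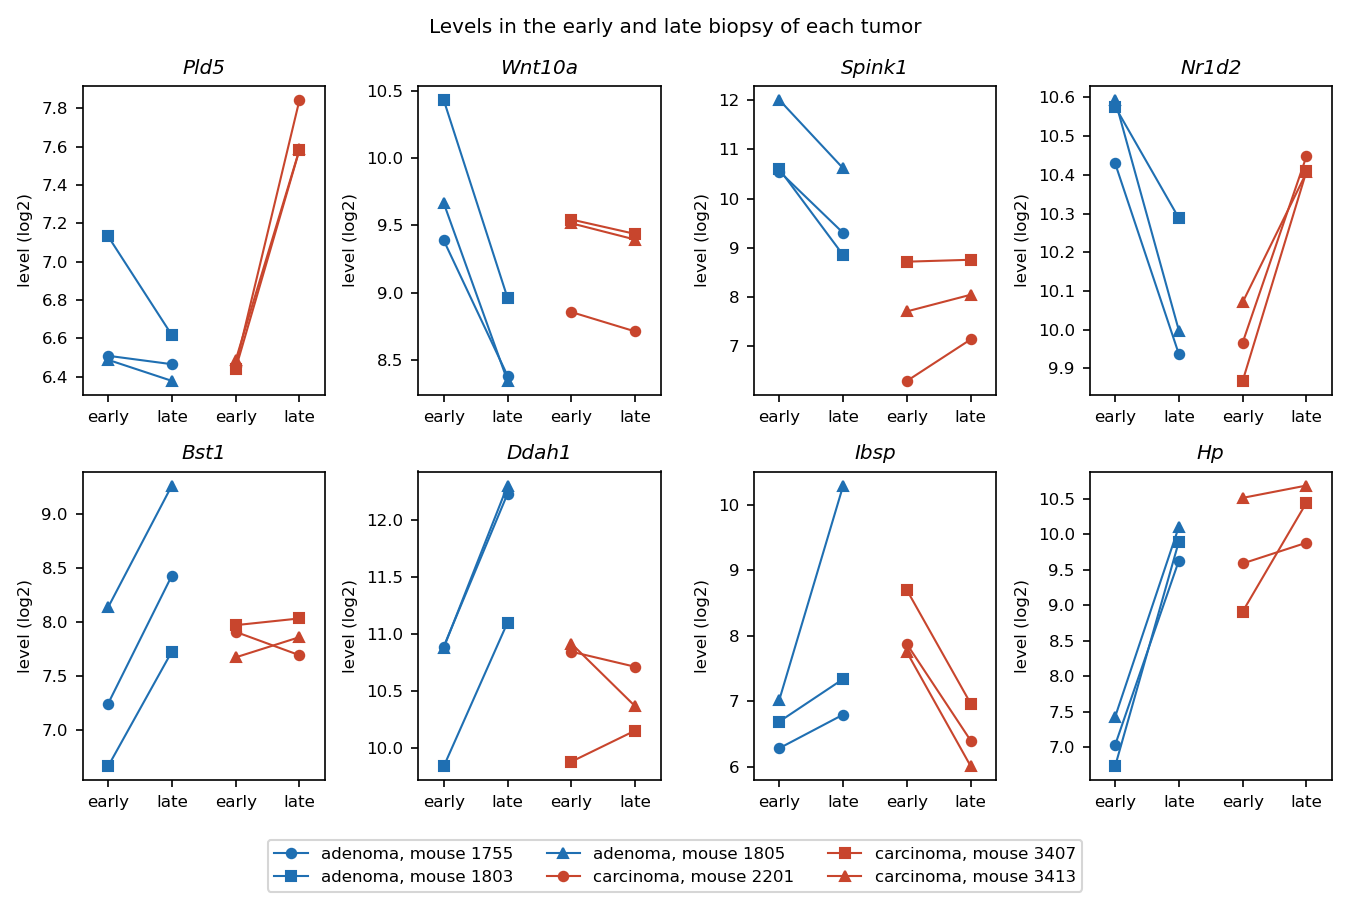
Lines join the early and the late level (log2) of each tumor for 8 genes, blue for the 3 adenoma mice and red for the 3 carcinoma mice, with 1 symbol per mouse; the vertical scales differ between panels. Wnt10a, Bst1 and Ddah1 slope in adenomas and are nearly flat in most carcinomas, while Nr1d2 and Ibsp slope in opposite directions in the 2 pathologies.

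Opposite change was looked for next, that is, all 3 changes of one pathology above 0 and all 3 of the other below 0. This held for 237 genes with a higher late level in carcinomas and a lower one in adenomas (1.19% of genes tested) and for 341 genes the other way (1.71%). When every change had to pass 0.3 log2, 1 gene was left in each direction, Ibsp and the predicted gene Gm10741, and past 0.5 log2 only Ibsp in the direction of a lower late level in carcinomas. Nr1d2 stood just short of the 0.3 mark, with a change of -0.29 in mouse 1803, as did Cdr2l, with 0.27 and 0.28 in mice 1755 and 1803 and -0.26 in mouse 3413. Up to 10 genes per direction with opposite change past 0 were added after their values were seen, by the smallest of their 6 changes. Of the genes that follow, Ibsp, Nr1d2 and Cdr2l were also named by the other rules, and Gzmb and Cyp4f14 by their lists alone.

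The promoter windows of Ibsp, Nr1d2 and Eci3, which lead the 2 directions, are shown because the order of naming put these genes first among those with opposite change. They run from 250 bases before to 50 bases after the annotated start, 5′ to 3′ on the gene's strand, and come from RefSeq on GRCm38.p6. The table used here has no entry for Cdr2l. Each was searched on both strands for the TCF/LEF motifs CTTTGAT and CTTTGAA, the AP-1 motif TGACTCA, the E-box CACGTG and the D-box TTATGTAA, and a match would be in capitals.
Ibsp, chr5:104299037-104299336, plus strand: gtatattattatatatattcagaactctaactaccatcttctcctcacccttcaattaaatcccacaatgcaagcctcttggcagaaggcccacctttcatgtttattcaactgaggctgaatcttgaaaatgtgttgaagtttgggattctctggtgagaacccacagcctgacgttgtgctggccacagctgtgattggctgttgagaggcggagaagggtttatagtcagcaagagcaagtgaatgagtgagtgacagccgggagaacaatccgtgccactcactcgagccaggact
Nr1d2, chr14:18239057-18239356, minus strand: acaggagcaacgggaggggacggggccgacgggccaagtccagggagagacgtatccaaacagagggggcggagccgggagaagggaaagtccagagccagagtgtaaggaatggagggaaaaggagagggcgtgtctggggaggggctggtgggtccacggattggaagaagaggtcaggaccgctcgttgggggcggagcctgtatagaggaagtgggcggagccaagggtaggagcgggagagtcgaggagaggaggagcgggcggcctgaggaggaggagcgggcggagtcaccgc
Eci3, chr13:34963760-34964059, minus strand: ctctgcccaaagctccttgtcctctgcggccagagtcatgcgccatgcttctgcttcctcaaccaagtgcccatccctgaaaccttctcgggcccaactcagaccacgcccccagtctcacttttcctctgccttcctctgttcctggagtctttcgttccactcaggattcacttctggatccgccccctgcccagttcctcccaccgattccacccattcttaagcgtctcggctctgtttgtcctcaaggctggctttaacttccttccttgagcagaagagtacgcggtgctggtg
These 3 windows hold none of the 5 motifs, which says only that those letters are not there. Of the 32851 promoters in the table, 3.73% hold CTTTGAT, 5.14% CTTTGAA, 5.2% TGACTCA, 7.15% CACGTG and 0.938% TTATGTAA.

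Ibsp encodes bone sialoprotein, a secreted integrin-binding protein best known from bone. It was at 6.28, 6.69 and 7.03 log2 in the early adenoma biopsies and at 6.80, 7.34 and 10.30 in the late ones. In carcinomas Ibsp was at 7.87, 8.69 and 7.75 early and at 6.40, 6.96 and 6.01 late. Its mean level was at percentile 35.5 of genes. All 3 early carcinoma levels were above all 3 early adenoma levels, and the late levels overlapped. Its changes were 0.51, 0.65 and 3.27 in adenomas, widely spread, and -1.47, -1.73 and -1.74 in carcinomas, close together. The difference of -3.13 (SE 0.703, limma adjusted p = 0.621) was the largest in its direction among genes the naming rule admits. Cdr2l, a paralog of the cerebellar antigen gene Cdr2, had changes of 0.27, 0.28 and 0.41 in adenomas and of -0.40, -0.32 and -0.26 in carcinomas (difference -0.65, SE 0.102).

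Aldh1a3, an enzyme that makes retinoic acid, followed the direction of Ibsp with changes of 0.13, 0.35 and 2.14 in adenomas and -1.01, -0.52 and -0.77 in carcinomas. As with Ibsp, the adenoma of mouse 1805 had by far the highest change. The orphan receptor Gprc5b (0.17, 0.95 and 0.82 against -0.20, -0.15 and -0.50) and the exocyst-like gene Exoc3l (0.24, 0.63 and 0.41 against -0.15, -0.24 and -0.15) had differences of -0.93 and -0.61. Tln2, a talin that links integrins to actin, had -0.56, and Castor2, of the arginine-sensing family upstream of mTORC1, also had -0.56. A further probe set of Castor2 was at -0.36 and had a change just above 0, of 0.02, in mouse 3407. Lgi3 (-0.39), Nol4l (-0.48) and the pregnancy-specific glycoprotein Psg17 (-0.45) had differences of smaller size. Lgi3 and Psg17 were dim, at percentiles 30.5 and 29.7 of genes. The adenoma changes of Nol4l were 0.13, 0.13 and 0.51, so mouse 1805 was again the highest.

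In the other direction stood the nuclear receptor Nr1d2 (REV-ERB beta), a transcriptional repressor of the circadian clock. Its levels were 10.43, 10.58 and 10.59 log2 in the early adenoma biopsies and 9.94, 10.29 and 9.998 in the late ones. In carcinomas Nr1d2 was at 9.97, 9.87 and 10.07 early and at 10.45, 10.41 and 10.41 late. The early adenoma arrays stood above the early carcinoma arrays and the late ones below, with no overlap at either time. The change was -0.46 ± 0.16 in adenomas and 0.45 ± 0.11 in carcinomas (SD, n = 3 each), a difference of 0.91 (SE 0.123, limma adjusted p = 0.561).

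Eci3, of a family of isomerases for the breakdown of unsaturated fatty acids, was at 7.13, 7.04 and 7.46 early and at 6.87, 6.51 and 6.37 late in adenomas. In carcinomas it was at 6.21, 5.91 and 6.60 early and at 7.09, 6.42 and 7.58 late. Its level, at percentile 26.2, was dim, and the early levels of the 2 pathologies did not overlap. Sectm1b and Sectm1a, which encode related secreted and transmembrane proteins, shared this direction. Sectm1b had changes of -0.26, -1.13 and -1.71 in adenomas and 1.23, 0.80 and 0.51 in carcinomas, at a level of percentile 96.5. Sectm1a had -0.40, -1.20 and -0.38 against 1.57, 0.34 and 0.24. The protocadherin Pcdhb5 had -0.24, -0.58 and -0.34 against 0.33, 0.77 and 0.29.

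Several immune genes were on this side. Ccl17, a chemokine that attracts T cells, was at 9.33, 9.28 and 9.43 early and 8.45, 8.78 and 8.77 late in adenomas, and at 8.63, 8.88 and 8.39 early and 10.48, 9.08 and 9.34 late in carcinomas. All 3 late carcinoma levels of Ccl17 exceeded all 3 late adenoma levels (difference 1.68, SE 0.389), and mouse 2201 was the highest. Complement factor B, Cfb, had changes of -0.87, -0.45 and -0.31 against 0.51, 0.21 and 0.36. The cytotoxic protease Gzmb had changes of -3.13, -0.05 and -0.19 in adenomas and 1.40, 0.61 and 0.78 in carcinomas, so that its difference of 2.06 leaned on mouse 1755. The cytochrome Cyp4f14 had -0.82, -0.40 and -0.37 against 0.39, 0.31 and 0.19 (difference 0.83, SE 0.15).

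**Figure D3:**
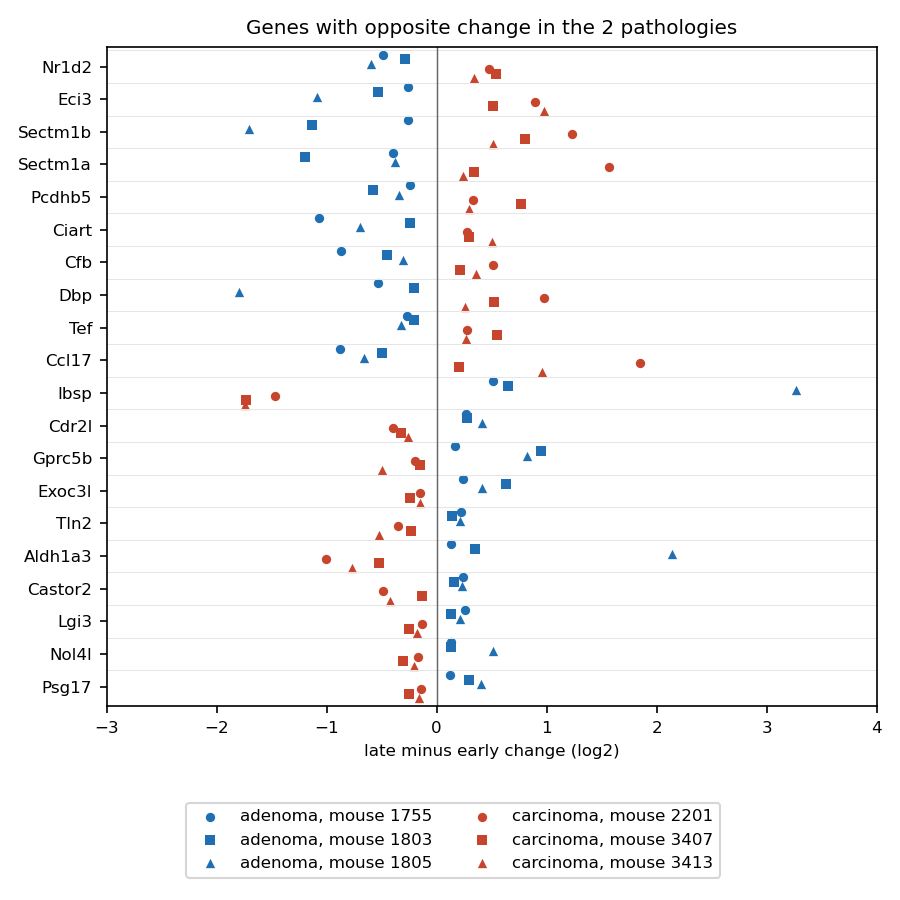
Each row is 1 gene with its late minus early change (log2) in each of the 3 adenoma mice (blue) and the 3 carcinoma mice (red), 1 symbol per mouse. The first 10 genes have red points above 0 and blue points below, and the last 10 the reverse, with Ibsp at 3.27 and Aldh1a3 at 2.14 in mouse 1805 as the widest.

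One-sided change was defined as 3 changes past 0.5 log2 in one pathology with all 3 of the other within 0.3 of 0. By this measure, of 19938 genes, 9 had a higher late level in adenomas only and 24 a lower one, whereas 0 met it for carcinomas in either direction. This count has no test, and it depends on the spread of the changes, whose median SD over genes was 0.167 in adenomas and 0.155 in carcinomas. All 3 adenoma pairs cross the number ranges, but of the carcinoma pairs only that of mouse 2201 does. The biopsies were 140, 282 and 309 days apart in adenomas and 172, 128 and 83 in carcinomas. The part of the number ranges and the intervals in this count was not tested. Besides Bst1, the genes named with a higher late level were B3gnt6, which builds the core 3 sugar chains of colon mucins (1.62, 0.65 and 0.55 in adenomas, -0.18, 0.26 and -0.26 in carcinomas), Notch4, a receptor of vessel walls (0.86, 0.64 and 1.37 against 0.15, -0.08 and -0.18), and the copine Cpne8 (0.86, 0.67 and 0.67 against -0.22, 0.07 and 0.07). B3gnt6 and Cpne8 were dim, at percentiles 30.4 and 32.2 of genes.

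Among those with a lower late level in adenomas, Mdga2, a cell-surface protein with immunoglobulin domains, had the highest difference of those named. It was at 9.09, 10.25 and 9.43 early and 7.83, 8.86 and 6.97 late in adenomas, against 8.76, 9.82 and 9.84 early and 8.84, 10.04 and 9.77 late in carcinomas. The late adenoma and late carcinoma levels of Mdga2 overlapped only in that mouse 1803 (8.86) exceeded mouse 2201 (8.84). The difference was 1.78 (SE 0.313, limma adjusted p = 0.561), and a further probe set of the gene gave 1.49. Slc16a10, a carrier of aromatic amino acids, had changes of -0.89, -1.25 and -1.37 against 0.18, 0.18 and -0.27. The retinol dehydrogenase Rdh9 had -1.16, -0.93 and -2.14 against 0.12, -0.18 and -0.11, and the lipid-binding protein Bpifb5 had -2.35, -1.61 and -0.62 against 0.19, -0.21 and -0.12.

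The largest differences were taken by size after the values were seen, and in most of these genes the mice of a pathology were widely spread. Mptx1, a mucosal pentraxin, had changes of -6.81, -1.96 and -5.06 in adenomas and 0.86, -1.07 and -2.22 in carcinomas, and these overlapped. The lipase-related Pnliprp1 had -1.72, -3.14 and -4.22 against -0.22, 0.13 and -1.00, and its neighbor in the same family Pnliprp2 had -2.06, -2.32 and -3.59 against 0.01, 0.57 and -0.96. Neither overlapped (differences 2.66 and 2.53, SE 0.624 and 0.513). Defa24, one of many near-identical Paneth cell defensin genes that an array may not tell apart, had 1.25, -1.26 and -4.69 against 1.17, 1.88 and 2.29. Cxcl13, the chemokine of B cell follicles, had 0.61, 0.06 and -2.69 against 2.19, 2.06 and 1.22, a difference of 2.50 without overlap. On the low side, the imprinted gene Mest had 0.41, 2.73 and 2.82 against 0.15, -0.62 and -0.94, and the clotting factor subunit F13a1 had 1.15, 1.96 and 2.90 against -0.70, 0.53 and -0.26.

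Over all members measured, ligands and receptors of the Wnt pathway leaned only slightly to the lower change in carcinomas, with Wnt10a and Wnt6 among the exceptions. Of 21 ligands and R-spondins 8 had the higher change in carcinomas, against 47.1% of all genes. The median difference of these 21 was -0.07 (-0.01 over all genes), but it was 1.06 over the ligands above the median level of genes. At an unadjusted p under 0.05 were 2 (against 3.68% of all genes), Wnt10a and Wnt6. Wnt10a was at 9.39, 10.43 and 9.66 early and 8.38, 8.96 and 8.34 late in adenomas, and at 8.86, 9.54 and 9.52 early and 8.71, 9.44 and 9.39 late in carcinomas. The changes were -1.00, -1.47 and -1.32 in adenomas and -0.14, -0.11 and -0.12 in carcinomas, a difference of 1.14 (SE 0.139, limma adjusted p = 0.456). Wnt6 had changes of -0.96, -1.56 and -1.26 against -0.32, -0.04 and -0.24 (difference 1.06, SE 0.173). Wnt5a, a ligand of stromal cells, had 1.32, 2.53 and 1.80 against 1.84, 0.46 and -0.66, so mouse 2201 lay within the adenoma range. Of the 15 receptors and co-receptors 4 had the higher change in carcinomas and 11 the lower (median -0.12). That median was -0.04 without mouse 1805 and -0.03 with the days between biopsies as a covariate. Fzd10 (-0.97, -0.62 and -0.92 against -0.22, -0.38 and -0.24) and Fzd3 (-0.45, -0.26 and -0.14 against 0.58, 1.24 and -0.06) were among the 4. Fzd4, a receptor of vessels, was among the 11 (0.39, 1.09 and 0.65 against -0.27, 0.09 and -0.38; difference -0.89, SE 0.213).

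Wnt targets and feedback inhibitors leaned to the side of carcinomas. Of the 23 measured 20 had the higher change there. At an unadjusted p under 0.05 were 4 (against 3.68% of all genes), and 7 did not overlap (against 6.39%). The median difference was 0.46. That median was 0.15 without mouse 1805 and 0.13 with the days between biopsies as a covariate. The mean change of the list was -0.28, -0.08 and -1.00 in adenomas and -0.01, 0.11 and -0.04 in carcinomas. Apcdd1, a membrane inhibitor of Wnt signals, was at 11.63, 12.79 and 12.46 early and 10.28, 11.76 and 9.45 late in adenomas, and at 10.98, 11.99 and 11.67 early and 10.58, 11.76 and 11.38 late in carcinomas. Its late level was lower in all 6 tumors, by more in each adenoma (-1.80 ± 1.06) than in any carcinoma (-0.31 ± 0.08; SD, n = 3 each). The secreted inhibitor Wif1 had changes of -0.47, -0.41 and -2.05 against 0.12, 0.51 and -0.05, and the pseudoreceptor Bambi had -0.67, -0.83 and -0.90 against 0.16, -0.58 and -0.29. Axin2, the standard readout of the pathway, had -0.28, -0.07 and -1.13 against 0.08, -0.07 and -0.09 and overlapped. Myc (-0.41, 0.43 and -0.71 against -0.22, 0.19 and -0.07) overlapped too, as did Lgr5, the receptor of crypt stem cells (0.95, 0.53 and -0.35 against 0.57, 1.78 and 0.52).

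Of the 12 stem cell genes 11 had the higher change in carcinomas, with a median difference of 0.42. This median was 0.18 without mouse 1805 and also 0.18 without mouse 3407. With the days between biopsies as a covariate it was 0.17, and with the number range 0.16. Hopx, a marker of slowly dividing crypt cells, had opposite changes (-0.14, -0.07 and -0.52 against 0.14, 0.40 and 0.11), and the Polycomb gene Bmi1 had -0.66, -0.43 and -0.21 against 0.02, -0.07 and 0.13. The transcripts of Apc itself (difference -0.07, SE 0.101) and of Ctnnb1, beta-catenin (0.09, SE 0.125), overlapped between the pathologies. Of 12 measured colorectal cancer driver genes 6 were on each side with a median of 0.01. Smad2, a mediator of TGF-beta signals, had small opposite changes (-0.32, -0.15 and -0.11 against 0.09, 0.06 and 0.03).

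Division genes did not separate the groups. The median difference was 0.07 over 19 genes of mitosis and 0.01 over 20 of DNA replication, with 0 members of either list at an unadjusted p under 0.05 by limma. Mki67, the proliferation marker, had changes of 0.48, -0.07 and -0.14 in adenomas and -0.16, -0.07 and 0.16 in carcinomas. The 14 genes of oxidative phosphorylation all had the higher change in carcinomas and the 15 of glycolysis and hypoxia all the lower, at medians of 0.14 and -0.26, none at an unadjusted p under 0.05. Without mouse 1805 these medians were 0.09 and 0.04.

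Genes of mature colonocytes had the higher change in carcinomas in 14 of 20, with a median of 0.41. Of these 6 had an unadjusted p under 0.05 (against 3.68% of all genes) and 6 did not overlap (against 6.39%). The median ran from 0.26 (without mouse 1805) to 0.76 (without mouse 1755), and was 0.05 with the days between biopsies as a covariate and 0.08 over the genes above the median level. Car4, the membrane carbonic anhydrase of surface colonocytes, was at 11.74, 11.63 and 12.82 early and 9.28, 7.08 and 10.36 late in adenomas, and at 7.36, 8.22 and 8.58 early and 9.23, 7.00 and 7.47 late in carcinomas. The early adenoma biopsies stood far above the early carcinoma biopsies, and the late ones overlapped. Its change was 1.88 in mouse 2201 and -1.22 and -1.11 in the other carcinomas, against -3.16 ± 1.21 in adenomas. The sodium channel subunits Scnn1b (-0.96, -1.02 and -0.82 against -0.67, 0.44 and 0.08) and Scnn1g (-0.91, -1.46 and -1.47 against -0.78, 0.73 and -0.32) did not overlap. Krt20, a keratin of the same cells, did not share this (0.65, -1.19 and 0.92 against -0.51, -2.71 and 0.45), nor did the goblet cell mucin Muc2 (0.31, -0.06 and -0.28 against -0.05, 0.03 and -0.88). Of the 13 goblet cell genes as a whole 9 had the higher change in carcinomas (median 0.30, but -0.19 without mouse 1805). The trefoil peptide Tff3 had 0.09, 0.13 and -0.60 against 1.23, 0.93 and -0.12 and overlapped. Among 19 xenobiotic metabolism genes 16 had the higher change in carcinomas (median 0.19, but -0.02 with the days between biopsies as a covariate). Cyp3a13 (-0.89, -0.87 and -1.15 against 0.34, -0.19 and 0.25) was at a difference of 1.11.

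Of 9 tuft cell genes 7 had the higher change in carcinomas (median 0.15, but -0.04 without mouse 1755). Of 14 squamous genes 10 had the lower change in carcinomas (median -0.21, and -0.13 without mouse 2201), the cornified envelope gene Sprr1a with -0.10, 0.08 and 1.27 against -1.73, -0.29 and -0.58. Of 12 gastric-type genes 9 did so, with a median of -0.08 that lies near that of all genes (-0.01). Anxa10 had -0.57, -0.13 and 0.29 against -0.89, -0.97 and -1.03, whereas the gastric mucin Muc6 differed the other way, with -0.90, -2.24 and -1.77 against -0.94, -0.36 and -0.72 (difference 0.96, SE 0.343). Anxa10 was dim, at percentile 26.7 of genes.

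Transcripts of vessels and stroma had the lower change in carcinomas. All 14 endothelial genes had the lower change in carcinomas, with a median difference of -0.93 (-0.01 over all genes). Of them 7 had an unadjusted p under 0.05 (against 3.37% of all genes) and 4 did not overlap (against 6.67%). The mean change of the list was 1.21, 1.37 and 1.04 in adenomas and 1.05, 0.04 and -0.12 in carcinomas. Mouse 2201, the 1 carcinoma pair that crosses the number ranges as the adenomas do, had a list mean within the adenoma range. Its median difference from the adenomas was -0.17, and in 4 of the 14 genes its change lay below that of every adenoma. The part of the number ranges in this was not tested, and 1 mouse cannot tell them apart from the animal itself. Egfl7, a secreted protein of vessel walls, was at 8.93, 8.68 and 8.70 early and 9.82, 9.63 and 9.80 late in adenomas, against 9.11, 9.48 and 9.70 early and 9.55, 9.57 and 9.87 late in carcinomas. Its late levels overlapped, and the early ones were lower in every adenoma than in any carcinoma (difference of changes -0.74, SE 0.131). The receptors Flt1 (0.93, 1.68 and 1.18 against 0.80, 0.13 and -0.02) and Robo4 (1.28, 0.89 and 1.22 against 0.82, 0.01 and -0.41) did not overlap. Over the whole list the late means overlapped, at 9.92, 9.72 and 9.77 in adenomas and 9.84, 9.56 and 9.76 in carcinomas. The early means were 8.71, 8.34 and 8.74 in adenomas and 8.79, 9.52 and 9.89 in carcinomas. Of the early carcinoma arrays only that of mouse 2201 is of the first number range. In a whole biopsy the number of cells of a type and the RNA per cell cannot be told apart. The endothelial median was -0.67 with the days between biopsies as a covariate.

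Of 18 fibroblast and matrix genes 17 had the lower change in carcinomas (median -0.78). At an unadjusted p under 0.05 were 5 (against 3.37% of all genes), and 4 did not overlap (against 6.67%). The median was -0.44 without mouse 1803, -0.48 without mouse 3413 and -0.38 with the days between biopsies as a covariate. The mean change of the list was 0.94, 1.74 and 0.47 in adenomas and 0.88, 0.32 and -0.46 in carcinomas, and the median for mouse 2201 alone against adenomas was -0.20. Col6a3, a chain of type VI collagen, was at 9.69, 8.93 and 9.39 early and 10.58, 11.26 and 11.24 late in adenomas, and at 9.59, 10.48 and 11.03 early and 10.11, 10.35 and 10.01 late in carcinomas. The 3 late Col6a3 levels of adenomas were above the 3 of carcinomas (difference of changes -1.90, SE 0.485). The list as a whole did not share this, with late means of 11.12, 11.36 and 10.97 in adenomas and 11.11, 11.11 and 11.03 in carcinomas. Its early means were 10.18, 9.62 and 10.50 in adenomas and 10.23, 10.79 and 11.50 in carcinomas. The early arrays of mice 3407 and 3413 are those of the second number range, whose part in these means was not tested. Col1a1 had changes of 1.44, 2.43 and 1.13 against 0.73, 0.38 and -0.69, and Col5a1 had 0.57, 0.95 and 0.84 against 0.26, 0.27 and -0.50. Matrix proteases and their inhibitors had the lower change in 12 of 15 (median -0.57, but -0.22 without mouse 1805 and 0.01 with the days between biopsies). Among these were the aggrecanases Adamts4 (0.77, 0.87 and 1.16 against 0.06, 0.59 and -0.57) and Adamts5 (0.94, 1.21 and 0.72 against 0.67, 0.47 and -0.06) and the inhibitor Timp3 (0.89, 1.78 and 1.41 against 0.65, 0.52 and -1.16). Smooth muscle genes had the lower change in 10 of 10 (median -0.34), but the median was -0.03 without mouse 3413, -0.11 without mouse 1803 and -0.80 without mouse 1805, and mouse 2201 alone was higher than the adenomas by 0.43. Ret, the receptor of enteric neurons that other cells may also express, had 0.91, -0.08 and 2.77 against -0.53, -1.00 and -0.12.

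Signals between these cells were mixed. Of 17 Notch pathway genes 11 had the lower change in carcinomas, 5 at an unadjusted p under 0.05 (against 3.37% of all genes). Among the 5 were the ligand Jag1 (0.53, 0.52 and 1.19 against 0.02, 0.13 and -0.49) and the vessel wall target Heyl (0.47, 0.59 and 0.28 against 0.19, -0.11 and -0.67). Of 19 BMP and TGF-beta genes 13 had the lower change (median -0.22, but 0.02 without mouse 3413). The ligand Tgfb1 was at 0.45, 0.76 and 0.76 against 0.39, 0.19 and -0.23. The median of this list for mouse 2201 alone against adenomas was 0.17. Of 14 MAPK feedback genes 10 did so, and Spred1 (difference -0.18) and Spred2 (-0.24) had small opposite changes. Of 12 immediate early genes 8 had the higher change in carcinomas, Egr3 with -0.31, -0.15 and -0.30 against 0.00, 0.20 and -0.03 and Atf3 with -0.95, -1.07 and -0.60 against -0.62, 0.01 and -0.15.

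Neutrophil transcripts had the lower change in carcinomas too. Of 15 neutrophil genes 13 had the lower change in carcinomas, with a median of -1.00. At an unadjusted p under 0.05 were 6 (against 3.37% of all genes), and 5 did not overlap (against 6.67%). The list mean was 0.66, 0.95 and 1.82 in adenomas and -0.54, 0.23 and 0.65 in carcinomas. Here mouse 2201 was the lowest of all 6, and its median difference from the adenomas was -1.54. Csf3r, the receptor of the neutrophil growth factor G-CSF, was at 8.08, 7.85 and 8.46 early and 9.01, 9.28 and 10.67 late in adenomas, and at 9.44, 9.51 and 8.99 early and 9.11, 9.22 and 9.69 late in carcinomas. The early levels did not overlap, the carcinomas being higher, and the late ones did. The calprotectin subunit S100a8 had changes of 1.56, 2.14 and 3.29 against -0.98, 0.11 and 1.56, and the collagenase Mmp8 had 1.65, 2.44 and 3.27 against -0.57, 1.39 and 1.06. Mmp8 was dim, at percentile 28.1 of genes. The chemokine receptor Cxcr2 had 1.13, 2.69 and 2.74 against -0.70, -0.05 and 1.22 and overlapped in mouse 3413 alone. Of the red cell list only Alas2 and Slc4a1 were measured. Slc4a1, the anion exchanger of red cells, had 0.60, 1.99 and 3.95 against -0.22, 0.42 and 0.20, and Alas2, of heme synthesis, had 1.48, 1.77 and 4.10 against -0.82, 1.63 and 0.34. Both had the lower change in carcinomas, as the neutrophil genes did, and their part in the neutrophil values was not tested.

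Of 20 mucosal defence and acute phase genes 9 had the higher and 11 the lower change in carcinomas (median -0.01). That median was -0.77 without mouse 1803 and 0.35 without mouse 1805. The 3 members with an unadjusted p under 0.05 all had the lower change in carcinomas (against 3.37% of all genes). Hp, haptoglobin, was at 7.03, 6.73 and 7.42 early and 9.63, 9.90 and 10.11 late in adenomas, and at 9.59, 8.91 and 10.52 early and 9.88, 10.45 and 10.69 late in carcinomas. The 3 early adenoma levels were the lowest of all 12, and the change was 2.82 ± 0.31 in adenomas against 0.67 ± 0.76 in carcinomas (SD, n = 3 each; difference -2.15, SE 0.376, limma adjusted p = 0.561). The acute phase gene Saa3 had changes of 1.41, 1.54 and 1.20 against -1.04, 0.74 and -0.56. Ptgs2, the inducible cyclooxygenase that makes prostaglandins in intestinal tumors, was at 10.32, 10.44 and 11.42 early and 11.21, 11.73 and 13.26 late in adenomas, and at 12.75, 12.18 and 11.26 early and 11.26, 12.98 and 9.48 late in carcinomas. Its late level was higher in all 3 adenomas, but in carcinomas only in mouse 3407.

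Lymphoid and antigen presentation genes had the higher change in carcinomas by their medians, which depended on single mice of both pathologies. Of 18 T and NK cell genes 15 had the higher change in carcinomas (median 0.35, and 0.07 without mouse 2201 or 0.13 without mouse 1805), with list means of 0.01, 0.18 and -0.48 in adenomas and 0.89, 0.19 and 0.16 in carcinomas. Cd3g, part of the T cell receptor complex, had 0.40, 0.68 and -1.61 against 2.16, 0.56 and 0.89 and overlapped. Of 10 MHC class II genes 9 did so (median 1.15, and 0.28 without mouse 2201 or 0.35 without mouse 1805), but the list means were 0.39, 0.14 and -1.91 against 1.88, -0.43 and 0.15, so the pathologies overlapped. Cd74, the invariant chain, had 0.59, -0.12 and -2.34 against 2.80, -0.47 and 0.13, and the class II activator Ciita had 0.34, -0.08 and -1.87 against 1.12, -0.22 and 0.15. B and plasma cell genes (9 of 13, median 0.65), interferon response genes (13 of 15, median 0.42), macrophage genes (11 of 14, median 0.25) and mast cell genes (10 of 12, median 0.44) had overlapping list means as well. Leaving out 1 mouse turned the B and plasma cell median to -0.24 (mouse 1805), the interferon median to -0.13 (mouse 1755) and the macrophage median to -0.20 (mouse 2201), and brought that of mast cells to 0.02 (mouse 1755).

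**Figure D4:**
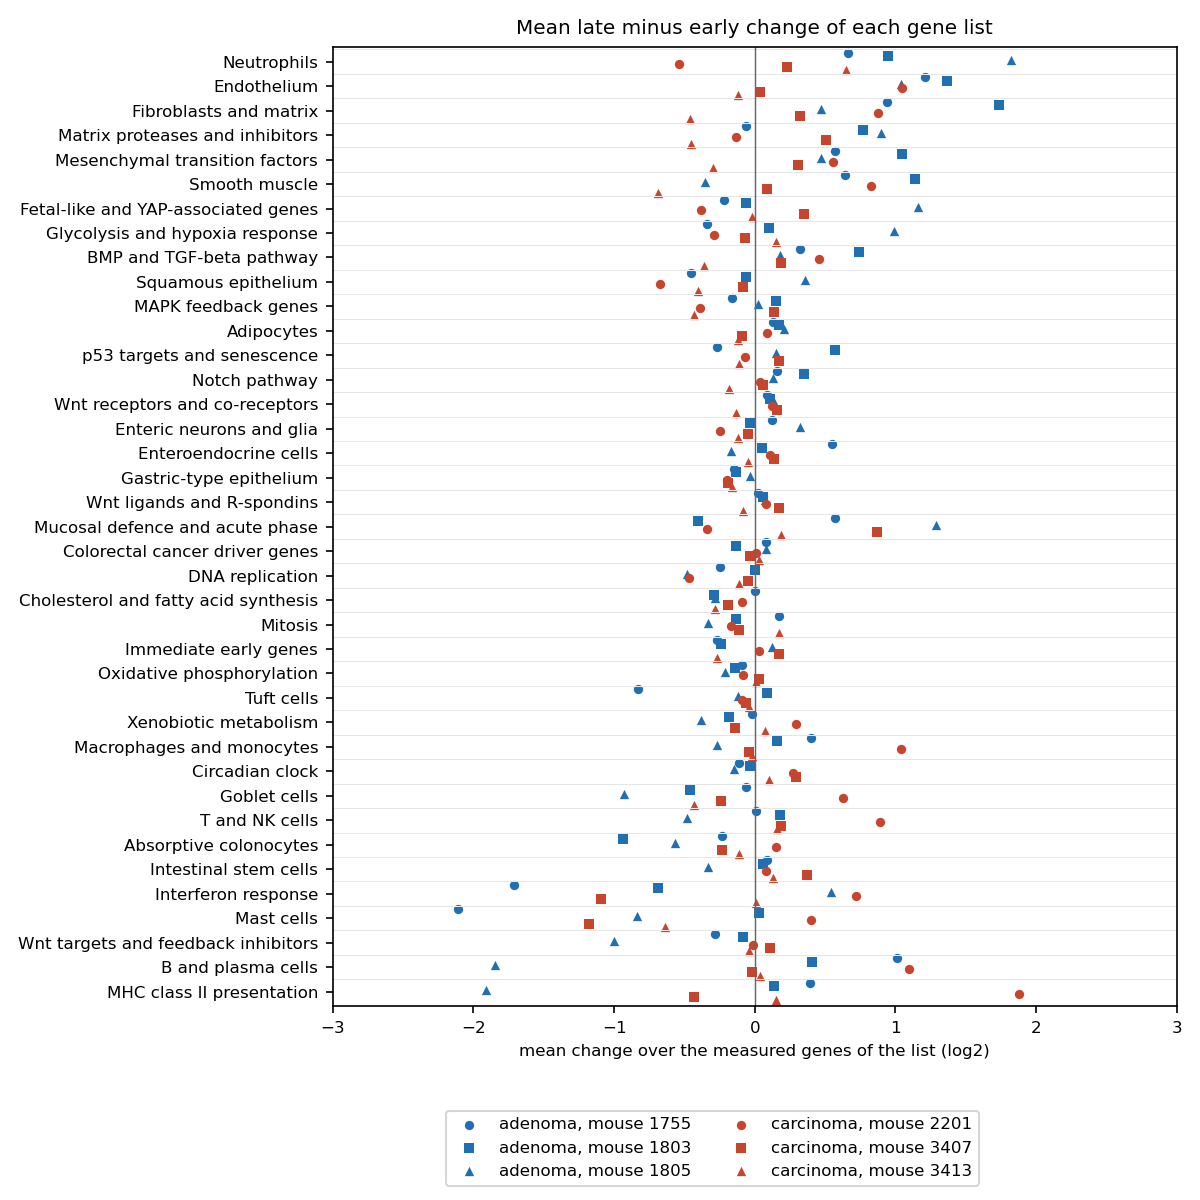
Rows are gene lists with 5 or more measured genes, ordered from the lowest to the highest median difference, and points give the mean late minus early change (log2) of the list in each of the 3 adenoma mice (blue) and 3 carcinoma mice (red). For endothelium the carcinoma of mouse 2201 (1.05) sits beside the adenomas (1.04 to 1.37), while for MHC class II presentation mice 2201 (1.88) and 1805 (-1.91) lie far out.

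Because Nr1d2, Dbp, Tef and Ciart were all among the genes with opposite change, a list of clock genes was put together after the values were seen. In the clock, Arntl and Clock switch on the Per, Cry and Nr1d genes and the factors Dbp, Tef and Hlf, whose products in turn act back on the cycle, so that Arntl peaks when many of its targets are low. At what time of day each biopsy was taken was not known here. Of 17 clock genes measured 12 had the higher change in carcinomas, 7 at an unadjusted p under 0.05 (against 3.68% of all genes). Of them 5 had opposite changes of that direction (against 1.19% of all genes). Since the list followed from its members, these counts are a description only. Dbp was at 8.89, 8.89 and 10.32 early and 8.36, 8.68 and 8.53 late in adenomas, and at 8.16, 8.13 and 8.48 early and 9.13, 8.66 and 8.75 late in carcinomas. The early levels did not overlap, adenomas being higher, and the late ones overlapped.

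Tef had changes of -0.27, -0.21 and -0.32 against 0.28, 0.55 and 0.27 (difference 0.63, SE 0.118). Ciart, a repressor of Arntl and Clock, had -1.07, -0.24 and -0.70 against 0.28, 0.29 and 0.50, and a further probe set of it gave a smaller difference of 0.46 with the same signs in all 6 mice. The period genes Per3 (-0.26, -0.05 and -0.36 against 0.31, 0.45 and 0.34) and Per2 (-0.32, 0.06 and -0.19 against 0.43, 0.52 and 0.28) did not overlap, whereas Per1 did. Arntl went the other way, at 8.51, 8.28 and 8.48 early and 9.14, 8.35 and 9.29 late in adenomas, and at 9.34, 8.63 and 8.82 early and 8.62, 8.54 and 8.64 late in carcinomas. Its changes were 0.63, 0.07 and 0.81 against -0.73, -0.09 and -0.18 (difference -0.84, SE 0.247, limma adjusted p = 0.621). Nr1d1, the paralog of Nr1d2, overlapped because mouse 3413 was at -0.04 (0.87 and 0.97 in the other carcinomas). Cry1 and Clock overlapped as well, and Cry2 was lower late in all 6 tumors, by less in carcinomas.

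**Figure D5:**
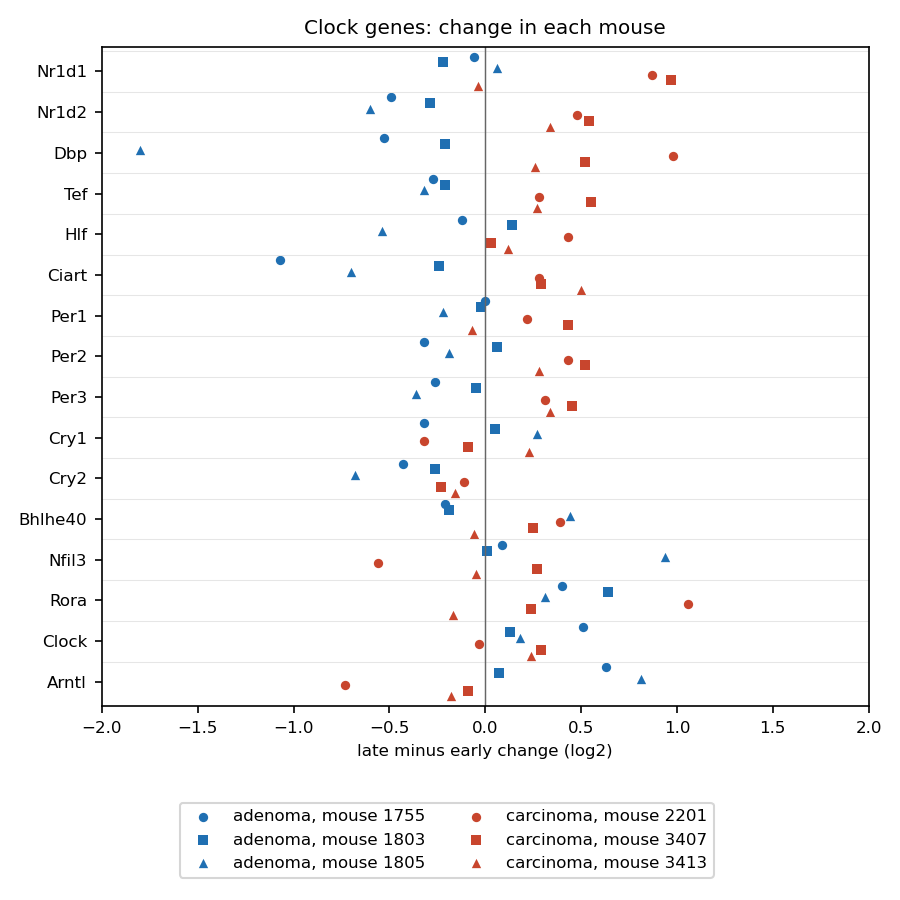
Each row is 1 of 16 clock genes with its late minus early change (log2) in each of the 3 adenoma mice (blue) and 3 carcinoma mice (red). Nr1d2, Dbp, Tef, Ciart and Per3 have all red points above 0 and all blue points below, and Arntl the reverse.

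The promoter windows of the clock genes with motif matches among those of opposite change are shown for comparison with that of Nr1d2 above, from the same RefSeq table on GRCm38.p6. Capitals mark the E-box CACGTG, which Arntl and Clock bind, or the D-box TTATGTAA, which Dbp, Tef and Hlf bind.
Ciart, chr3:95882179-95882478, minus strand: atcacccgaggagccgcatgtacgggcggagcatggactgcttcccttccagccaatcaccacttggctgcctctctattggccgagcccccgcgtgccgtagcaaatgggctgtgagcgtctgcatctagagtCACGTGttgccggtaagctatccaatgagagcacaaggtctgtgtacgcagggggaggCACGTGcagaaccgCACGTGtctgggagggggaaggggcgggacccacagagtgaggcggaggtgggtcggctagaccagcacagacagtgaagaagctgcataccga
Tef, chr15:81802423-81802722, plus strand: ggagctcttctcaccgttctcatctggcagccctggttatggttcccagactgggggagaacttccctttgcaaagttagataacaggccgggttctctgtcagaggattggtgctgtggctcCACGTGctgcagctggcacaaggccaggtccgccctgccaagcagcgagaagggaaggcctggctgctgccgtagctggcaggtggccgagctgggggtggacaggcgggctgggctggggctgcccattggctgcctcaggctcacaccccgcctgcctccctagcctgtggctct
Per3, chr4:151044616-151044915, minus strand: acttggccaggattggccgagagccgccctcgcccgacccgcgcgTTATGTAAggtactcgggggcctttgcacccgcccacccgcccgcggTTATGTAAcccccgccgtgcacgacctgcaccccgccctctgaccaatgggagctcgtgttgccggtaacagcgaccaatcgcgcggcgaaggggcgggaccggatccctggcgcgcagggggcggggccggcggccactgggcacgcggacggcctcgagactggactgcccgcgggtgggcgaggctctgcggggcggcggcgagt
Ciart holds 3 E-boxes, Tef 1 in this window and 1 in that of its other start, and Per3 holds 2 D-boxes. Of the 19 windows of 14 clock genes found there, 6 (31.6%) hold an E-box, against 7.15% of all 32851, and the windows of Dbp, Nr1d1, Nr1d2 and Arntl hold none. The 6 belong to 5 genes, among them Per1 and Cry1, whose changes overlapped. As the list holds genes that Arntl and Clock switch on, this share describes the list and not these tumors. A match describes the letters and is not evidence of binding in these tumors.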

How the data were processed

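Biopsies were stabilised in RLT buffer or RNALater, and 300 ng of RNA was labelled with the Ambion WT kit for Affymetrix arrays, per the labels' protocols. The authors deposited 1 value per probe set and array, taken here to be a log2 intensity from its range, as no unit is stated; the summarisation and normalisation behind the deposited log2 values, and the build of the array's annotation, are not given in the sources used here. No further normalisation and no filter was applied. Of 35557 probe sets, 21789 carry 1 gene symbol, 1621 several and 12147 are unnamed here; the brightest probe set of a gene was kept, which left 19938 genes. The test on the changes per mouse was that of limma 3.58.1 under R 4.3.3 (eBayes, Benjamini-Hochberg over all genes, 2-sided, threshold 0.05, 4 residual degrees of freedom), which equals the interaction of time and pathology with mouse as a block. The script was tested on simulated data. The pairs come from the same animal, and the deviations of the 2 arrays of a mouse from their group means correlated at 0.044 (mouse 2201) to 0.503.

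Named were genes above percentile 25 of mean level that are not predicted genes, microRNAs, small nucleolar RNAs or receptors of smell and taste: the 6 per direction with the smallest p, opposite changes past 0.3, up to 4 one-sided genes per kind, up to 3 members per list by p, and 8 fixed genes. Opposite changes past 0, the largest differences and the clock list were added after the values were seen. Members, rule and the 39 other lists were chosen with earlier results of these data known. Lists have no test. The median and the shares over all genes are given with the results, beside some of the lists. Alternatives were another block, each mouse left out, covariates, normalisations, an expression filter, another prior and the mean of probe sets.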

Additional observations from a re-analysis of the deposited data

Results flagged for a closer look

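In 31 genes named above, all 3 changes of one pathology lay above 0 and all 3 of the other below 0, while the test of the difference itself gave no adjusted p under 0.05 (limma, 0 of 19938 genes). Such opposite signs were found in 1.19% and 1.71% of all genes. Many of the 31 were named because of these signs, so their number is not a result and cannot be set against those shares. With the higher change in carcinomas the differences, in log2, were 1.43 for Pld5, 1.87 for Spink1, 1.42 for Eci3, 1.88 for Sectm1b, 1.38 for Sectm1a, 0.85 for Pcdhb5, 0.91 for Cfb, 1.68 for Ccl17, 2.06 for Gzmb, 0.46 for Hopx, 0.83 for Cyp4f14 and 0.25 for Smad2. Clock genes on the same side were Nr1d2 at 0.91, Ciart at 1.03, Dbp at 1.43, Tef at 0.63 and Per3 at 0.58. With the lower change in carcinomas the differences were -3.13 for Ibsp, -0.65 for Cdr2l, -0.59 for Efna2, -0.93 for Gprc5b, -0.61 for Exoc3l, -0.56 for Tln2, -1.64 for Aldh1a3, -0.56 for Castor2, -0.39 for Lgi3, -0.48 for Nol4l, -0.45 for Psg17, -0.18 for Spred1, -0.24 for Spred2 and -0.84 for Arntl.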

How the results depend on the processing

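The number of genes past the adjusted threshold was 0 in each of 17 alternatives, with the smallest adjusted p between 0.071 (without mouse 1805) and 0.982 (without mouse 3413). The count at an unadjusted p under 0.05, 1404 as reported, was 834 with no replicate block for the mouse, 1503 with mouse as a random replicate block, 739 with the days between biopsies as a covariate and 750 among genes above the median level, where fewer genes were tested. It ran from 808 (without mouse 3413) to 1690 (without mouse 1803) when 1 mouse was left out. With the number range as a covariate, which leaves mouse 2201 alone against the adenomas, 1371 genes were counted and 39.7% had the higher change in carcinomas, against 47.1%. Genes with opposite change numbered 578 past 0 log2 and 1 past 0.5 log2, against 2 past 0.3. Alternatives were followed for 110 of the 179 genes named by the rules, and 104 of these kept their direction under each one run. For many this was fixed in advance, as changes that do not overlap cannot turn when 1 mouse is left out. Another block, sex as a covariate, another prior and the expression filter leave the difference itself unchanged. With 0 calls as reported, leaving out the block could only add calls, and it added none. With 1 mouse left out, the difference ran from -0.04 to 0.53 for Myc, from -0.45 to 0.003 for Muc2, from -0.23 to 0.081 for Mki67, from -0.22 to 0.076 for Cry1 and from -0.18 to 0.013 for Clock. Cry1 was at 0.10 with the days between biopsies, and Ctnnb1 at -0.016 with the number range, and the cause was not tested. Of 40 list medians, 15 turned sign when 1 mouse was left out, among them goblet cells, B and plasma cells, interferon response, macrophages, BMP and TGF-beta genes and hypoxia; 25 kept it. With the number range the endothelial median was -0.17 and that of smooth muscle 0.43.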
